A study of Mus musculus with 23 samples.

Results

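Raising dietary potassium was compared between mice with and without the mineralocorticoid receptor in their kidney tubules, as the difference of 2 diet steps. In knockout mice the step led to normal potassium, against low potassium, and in control mice it led to high potassium, against normal potassium. The diets of the steps were therefore not the same, and the difference set the upper part of the potassium range in control mice against the lower part in knockout mice. All 23 RNA sequencing libraries of the series entered it. Every difference below is the control step minus the knockout step on the log2 scale, so that a negative value means a lower value of the step in control mice. By its arithmetic the same number is the sum of the high-potassium control and low-potassium knockout means minus the sum of the means on normal potassium. A gene that was low in both groups on an altered diet therefore has a negative difference.

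The libraries came from connecting tubule and cortical collecting duct, microdissected from kidney, and formed into 4 groups. These were knockout mice on normal potassium (KO-NK, n = 6), knockout mice on low potassium (KO-LK, n = 6), control mice on high potassium (CT-HK, n = 6) and control mice on normal potassium (CT-NK, n = 5), each on its diet for 4 days. All mice carried Pax8-rtTA, TRE-LC-1 and MRflox/flox. The first 2 alleles together make Cre under doxycycline in cells with Pax8 promoter activity, which includes most tubule segments, and not only the dissected ones. In the knockout mice this was done with doxycycline at 2 mg/ml, in drinking water with 5% sucrose, over 2 weeks, and a washout of 2 weeks on a rescue diet followed. Control mice had 5% sucrose water and no doxycycline. The labels do not say whether control mice had the rescue diet too, nor whether the groups were dissected on shared days. The knockout cannot be told apart from doxycycline, nor from these where they differed. The labels number the replicates without saying that each came from its own animal, so the tests rest on how far these libraries spread, which may be partly technical. In bulk tubules, fewer cells of a type and less RNA per cell cannot be told apart.

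Potassium in the blood drives aldosterone release from the adrenal gland. Aldosterone binds the mineralocorticoid receptor, encoded by Nr3c2, in principal cells and raises transcription of genes such as Sgk1, whose kinase keeps the epithelial sodium channel at the cell surface. Sodium entry through that channel favours potassium secretion through ROMK, encoded by Kcnj1, and through large-conductance potassium channels. Potassium also acts on these cells without the receptor, through membrane voltage, chloride-sensing WNK kinases and mTORC2. On low potassium, intercalated cells reclaim potassium with proton-potassium pumps such as that of Atp12a.

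Libraries held 16158408 to 34154475 estimated counts. Markers of the dissected segments were high, with a median over libraries of 1836 TPM (transcripts-per-million) for Aqp2, 418 for Calb1 and 398 for Scnn1b. Slc34a1, a phosphate carrier of the proximal tubule, had a median of 44.4 TPM and ranged from 8.32 to 1161 TPM. CT-HK replicate 6 stood apart from the rest by its proximal tubule transcripts, so results are also given without it. Counts on 1978 olfactory and vomeronasal receptor genes exceeded 2500 CPM (counts-per-million) in 8 libraries, 2 of KO-NK, 3 of KO-LK, 1 of CT-HK and 2 of CT-NK. Without these 8 libraries the median difference over all tested genes was 0.00, against -0.16 with them. The share of counts on the mitochondrial genome averaged 10.9% in KO-NK and 10.4% in KO-LK, against 15.6% in CT-HK and 15.3% in CT-NK, and differed little within either step.

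Nr3c2 itself did not pass the test between the diets of either genotype. It held 48.1, 53.8, 47.7, 68.7, 62.96 and 71.5 CPM in the KO-NK libraries and 44.5, 34.2, 44.6, 74.1, 68.4 and 59.9 CPM in the KO-LK libraries. It held 112, 145, 120.3, 89.98, 111 and 70.2 CPM in CT-HK and 120.05, 117, 151, 84.3 and 66.6 CPM in CT-NK. The knockout step of Nr3c2 was 0.12 (95% interval -0.31 to 0.54) and the control step 0.00 (-0.45 to 0.45), and the difference was -0.11 (-0.73 to 0.51). On normal potassium Nr3c2 was lower in knockout tubules, at 58.8 ± 10.4 CPM in KO-NK against 108 ± 33.2 CPM in CT-NK (SD, n = 6 and n = 5; log2 fold change -0.88, edgeR quasi-likelihood test, adjusted p = 0.0373). The lowest library of each control group, 70.2 CPM in replicate 6 of CT-HK and 66.6 CPM in replicate 5 of CT-NK, did not exceed the highest knockout libraries, and these were also the libraries richest in proximal tubule transcripts. The labels do not say which part of the gene is removed, and counts over the rest of it can remain.

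Sgk1, the receptor's best known kidney target, had the wider step in knockout tubules. It held 130.00, 86.9, 45.99, 193, 43.9 and 272 CPM in KO-NK and 30.3, 40.9, 44.1, 45.1, 62.7 and 53.3 CPM in KO-LK. In controls it held 749, 982, 882, 766, 856 and 648 CPM in CT-HK and 729, 667, 559, 524 and 562 CPM in CT-NK. All control libraries lay above all knockout libraries, 4 of the 6 KO-NK libraries lay above every KO-LK library, and KO-NK replicates 3 and 5 lay among the KO-LK libraries. The knockout step was 1.48 (SE 0.32, 95% interval 0.82 to 2.14), and its adjusted p was 0.244 by edgeR and 0.0077 by DESeq2. The control step was 0.42 (-0.26 to 1.10). The difference of the steps was -1.06 (-2.001 to -0.12), and its adjusted p was 0.876 by edgeR.

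The Sgk1 promoter is shown because Sgk1 is induced directly by corticosteroid receptors and its steps had the same sign in both genotypes. RefSeq gives 6 windows of 250 bases before to 50 after an annotated start of Sgk1. The one at chr10:21993640-21993939 (GRCm38.p6, plus strand) had the largest number of matches to AGAACA, a single arm of the palindromic glucocorticoid response element, which both corticosteroid receptors read. Capitals mark AGAACA on either strand (TGTTCT on the other) and the E-box CACGTG, which overlaps the first match:
Sgk1 promoter: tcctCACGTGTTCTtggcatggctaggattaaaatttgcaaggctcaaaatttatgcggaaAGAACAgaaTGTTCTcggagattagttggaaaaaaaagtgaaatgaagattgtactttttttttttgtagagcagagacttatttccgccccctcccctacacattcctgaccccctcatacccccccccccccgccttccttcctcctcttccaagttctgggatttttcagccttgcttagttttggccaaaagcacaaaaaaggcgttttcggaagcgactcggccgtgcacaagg
It holds 3 matches to AGAACA, of which the last 2 face each other across 3 bases. Such a match is a description of the letters. Of the promoters of tested genes in the RefSeq table, 15.3% held AGAACA, so that a match is common in windows of this length. These promoters came from 15428 of the 25829 tested genes, and those of a whole chromosome were left out.

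Genes that differed by 1 or more on the log2 scale and averaged 5 CPM or more in some group were ranked by p. Those of smallest p included Sertad1, Spock3, Ddit3, Nr4a3 and Klf10 with a lower step in controls, and Eif5a2 and Rln1 with a higher one. Across all genes, no difference between the steps passed an adjusted p of 0.05 by edgeR's quasi-likelihood test with Benjamini-Hochberg adjustment (0 of 25829 genes, 0%). At an unadjusted p under 0.05 there were 974 genes (3.77%), 525 with a higher step in controls (2.03%) and 449 with a lower one (1.74%). DESeq2 called 23 of 23662 genes (0.0972%), 8 higher (0.0338%) and 15 lower (0.0634%), of which 4 were at 0 in 10 or more libraries. Each step alone also gave 0 calls by edgeR, with 732 genes (2.83%) at an unadjusted p under 0.05 in the knockout step and 927 (3.59%) in the control step. DESeq2 called 24 genes (0.0673%) in the knockout step and 17 (0.0637%) in the control step. The mean of both steps, which finds genes that move alike, gave 0 calls (0%) and 634 genes (2.45%) at an unadjusted p under 0.05 by edgeR, and 15 calls (0.0726%) by DESeq2. Where no gene differs, a share of 0.05 is expected to pass an unadjusted p of 0.05. Each of the unadjusted shares over all tested genes lay below that. Among the 12059 genes of at least 5 CPM in some group, 3.57% passed in the knockout step and 5.98% in the control step. The share in the control step thus lay above the expected one for these genes. The genotypes, in contrast, differed on the same normal diet in 439 genes (1.7%) by edgeR and 1152 (7.37%) by DESeq2.

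The lack of calls did not bound every gene closely. Among 12059 genes with a mean of at least 5 CPM in some group, the median SE of the difference was 0.27, and the 95% interval lay within a 2-fold change in either direction for 68.8%. Among 4197 genes with at least 50 CPM it did so for 80.2%, and among all tested genes for 33.3%. The median difference was -0.16 over all tested genes, 0.11 over those of at least 5 CPM and 0.15 over those of at least 50 CPM. In the DESeq2 fit, over its own set of genes, the median was -0.31, whereas DESeq2's size factors within edgeR left it at -0.16.

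**Figure D1:**
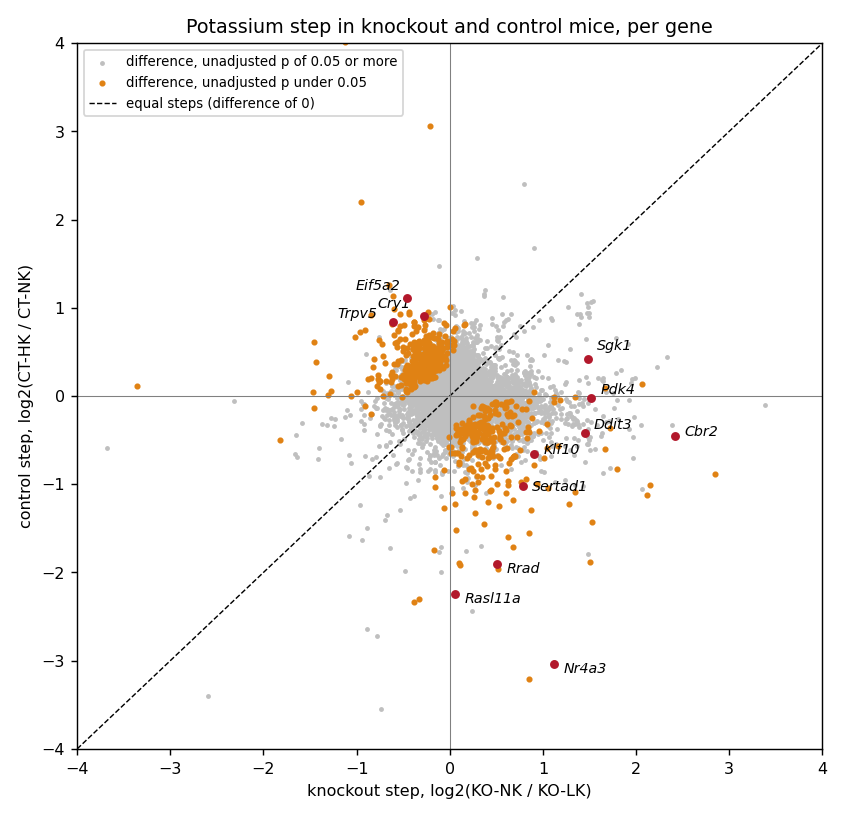
Knockout step (KO-NK minus KO-LK, horizontal axis) against control step (CT-HK minus CT-NK, vertical axis) in log2 units for 12054 genes of at least 5 CPM in some group, with 5 more outside the axes. Orange points had an unadjusted p under 0.05 in the difference, and the dashed line marks equal steps. Orange points lie away from that line, mostly where the steps have opposite signs.

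The steps bore little resemblance to each other. They share no library, so their values were set side by side over genes, which are not independent replicates. Over 25829 genes Pearson's r between the steps was -0.15 and Spearman's rho -0.25, and over the 12059 genes of at least 5 CPM they were -0.16 and -0.21. Without CT-HK replicate 6 the genes of at least 5 CPM gave -0.45 and -0.23. Of the 974 genes at an unadjusted p under 0.05 in the difference, 96.0% had steps of opposite sign, against 61.0% of all tested genes. That share follows in part from choosing genes by a large difference. Of these 974 genes, 264 (27.1%) had both means on normal potassium above both means on altered diets, against 24.4% of all tested genes, and 390 (40.0%) had both below, against 10.5%. The contrast by its arithmetic picks such genes. Libraries of KO-NK and KO-LK did not overlap for 71 genes (0.275%), and those of CT-HK and CT-NK for 32 genes (0.124%). No gene (0%) was without overlap in both genotypes.

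Of genes that differed by 1 or more and averaged 5 CPM or more in some group, those of smallest p with a lower step in controls were Sertad1, Spock3, Ddit3, Nr4a3 and Klf10, none of them called by edgeR and all of them by DESeq2. Sertad1, a cofactor of E2F transcription factors, held 39.4, 67.00, 40.2, 72.4, 45.95 and 50.6 CPM in KO-NK and 35.9, 18.5, 28.8, 37.3, 29.04 and 33.8 CPM in KO-LK. It held 26.1, 28.1, 20.4, 23.6, 18.3 and 21.3 CPM in CT-HK and 26.5, 50.98, 81.1, 51.1 and 23.6 CPM in CT-NK. The knockout libraries did not overlap between diets, KO-NK being higher, whereas in controls CT-HK was the lower group and CT-NK replicates 1 and 5 lay among its libraries. The difference of Sertad1 was -1.81 (SE 0.35, 95% interval -2.53 to -1.09), from a knockout step of 0.78 and a control step of -1.02. Its adjusted p was 0.386 by edgeR and 0.00537 by DESeq2, which called it.

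Ddit3 encodes CHOP, a transcription factor of the integrated stress response. It held 96.9, 183, 132, 181, 118 and 125 CPM in KO-NK and 82.3, 26.2, 56.03, 63.6, 39.8 and 37.8 CPM in KO-LK, against 42.8, 35.7, 33.8, 25.5, 22.2 and 27.4 CPM in CT-HK and 34.8, 62.9, 53.2, 36.8 and 21.2 CPM in CT-NK. The KO-NK libraries were all above the KO-LK libraries, and the control groups overlapped. The knockout step was 1.45 (SE 0.26; adjusted p = 0.191 by edgeR and 0.000499 by DESeq2) and the control step -0.42 (SE 0.27). The difference was -1.87 (-2.64 to -1.09; adjusted p = 0.386 by edgeR and 0.00689 by DESeq2).

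Klf10, a zinc-finger repressor induced early by TGF-beta, held 113, 200.3, 108, 159.6, 114 and 122 CPM in KO-NK and 104, 44.2, 84.8, 65.7, 79.6 and 57.02 CPM in KO-LK. It held 27.6, 24.8, 19.3, 22.6, 26.96 and 33.2 CPM in CT-HK and 36.6, 38.7, 64.9, 43.2 and 19.2 CPM in CT-NK, so the knockout groups stood apart and the control groups overlapped through CT-NK replicate 5. Its difference was -1.56 (-2.26 to -0.87). Spock3, a secreted matrix proteoglycan, ranged over 19.1 to 41.7 CPM (median 33.4) in KO-NK and 7.32 to 16.5 CPM (median 14.3) in KO-LK, without overlap. It ranged over 6.03 to 10.2 CPM (median 8.27) in CT-HK and 6.302 to 17.5 CPM (median 13.2) in CT-NK, and its difference was -1.73 (-2.44 to -1.01).

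Nr4a3, an orphan nuclear receptor of the immediate early class, had a difference of -4.16 (-5.98 to -2.33). It held 8.14, 6.68, 12.5, 4.83, 10.01 and 4.16 CPM in KO-NK and 2.46, 1.71, 3.94, 5.07, 4.95 and 3.11 CPM in KO-LK. It held 0.8498, 0.248, 0.531, 1.91, 0.771 and 0.762 CPM in CT-HK and 1.25, 2.61, 18.3, 12.1 and 0.446 CPM in CT-NK. By limma on log2(TPM + 1) its difference was -1.04. The CT-NK mean of Nr4a3 rested on replicates 3 and 4, and the other 3 CT-NK libraries lay at 0.446 to 2.61 CPM. Its paralog Nr4a2 had the same 2 libraries highest in CT-NK, at 53.1 and 18.2 CPM, and a difference of -4.06 (-6.02 to -2.10). Dnajb1, a heat shock co-chaperone that DESeq2 also called, held 169, 198, 136, 195, 172 and 167 CPM in KO-NK and 109, 68.3, 120.2, 101, 103 and 88.7 CPM in KO-LK, without overlap. It held 146, 88.4, 95.3, 83.6, 47.1 and 84.9 CPM in CT-HK and 109, 137, 248, 301 and 79.9 CPM in CT-NK, with CT-NK replicates 3 and 4 again highest, and its difference was -1.76 (-2.54 to -0.98).

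The 5 leading genes with a higher step in controls were Eif5a2, Rln1, Ltc4s, Llcfc1 and Tmem72, of which DESeq2 called the first 2. Eif5a2, a translation factor isoform, held 4.07, 7.13, 6.81, 6.41, 5.87 and 3.58 CPM in KO-NK and 6.35, 5.94, 7.25, 10.1, 9.75 and 7.09 CPM in KO-LK. It held 14.5, 15.1, 16.2, 11.3, 12.2 and 8.42 CPM in CT-HK and 9.66, 4.92, 4.48, 4.29 and 6.695 CPM in CT-NK. CT-NK replicate 1 lay above CT-HK replicate 6, and the other CT-HK libraries lay above all of CT-NK. Its knockout step was -0.46, its control step 1.11 and its difference 1.56 (SE 0.34, 0.86 to 2.27; adjusted p = 0.442 by edgeR and 0.00566 by DESeq2). Rln1, the gene of the hormone relaxin, ranged over 1.13 to 2.96 CPM (median 1.49) in KO-NK and 2.86 to 5.87 CPM (median 4.91) in KO-LK. It ranged over 1.96 to 9.896 CPM (median 6.06) in CT-HK and 2.399 to 5.99 CPM (median 3.33) in CT-NK. All KO-NK libraries but replicate 3 lay below every KO-LK library, and the control groups overlapped. Its difference was 2.06 (1.04 to 3.09).

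Ltc4s, the enzyme that makes leukotriene C4, held 98.3, 91.8, 99.2, 50.05, 44.7 and 15.7 CPM in CT-HK and 37.9, 26.8, 27.2, 35.5 and 24.3 CPM in CT-NK. All CT-HK libraries but replicate 6 lay above every CT-NK library. In knockouts it ranged over 14.8 to 31.3 CPM (median 20.9) in KO-NK and 22.4 to 48.6 CPM (median 30.8) in KO-LK, and its difference was 1.75 (0.79 to 2.70). Llcfc1 and the membrane protein gene Tmem72 had differences of 1.31 (0.57 to 2.04) and 1.000 (0.43 to 1.57). Llcfc1 (GRCm38 chromosome 6, 41684431 to 41685717, plus strand) is the near neighbour of the calcium channel gene Trpv5 (chromosome 6, 41652173 to 41680769, minus strand), whose difference had the same sign.

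**Figure D2:**
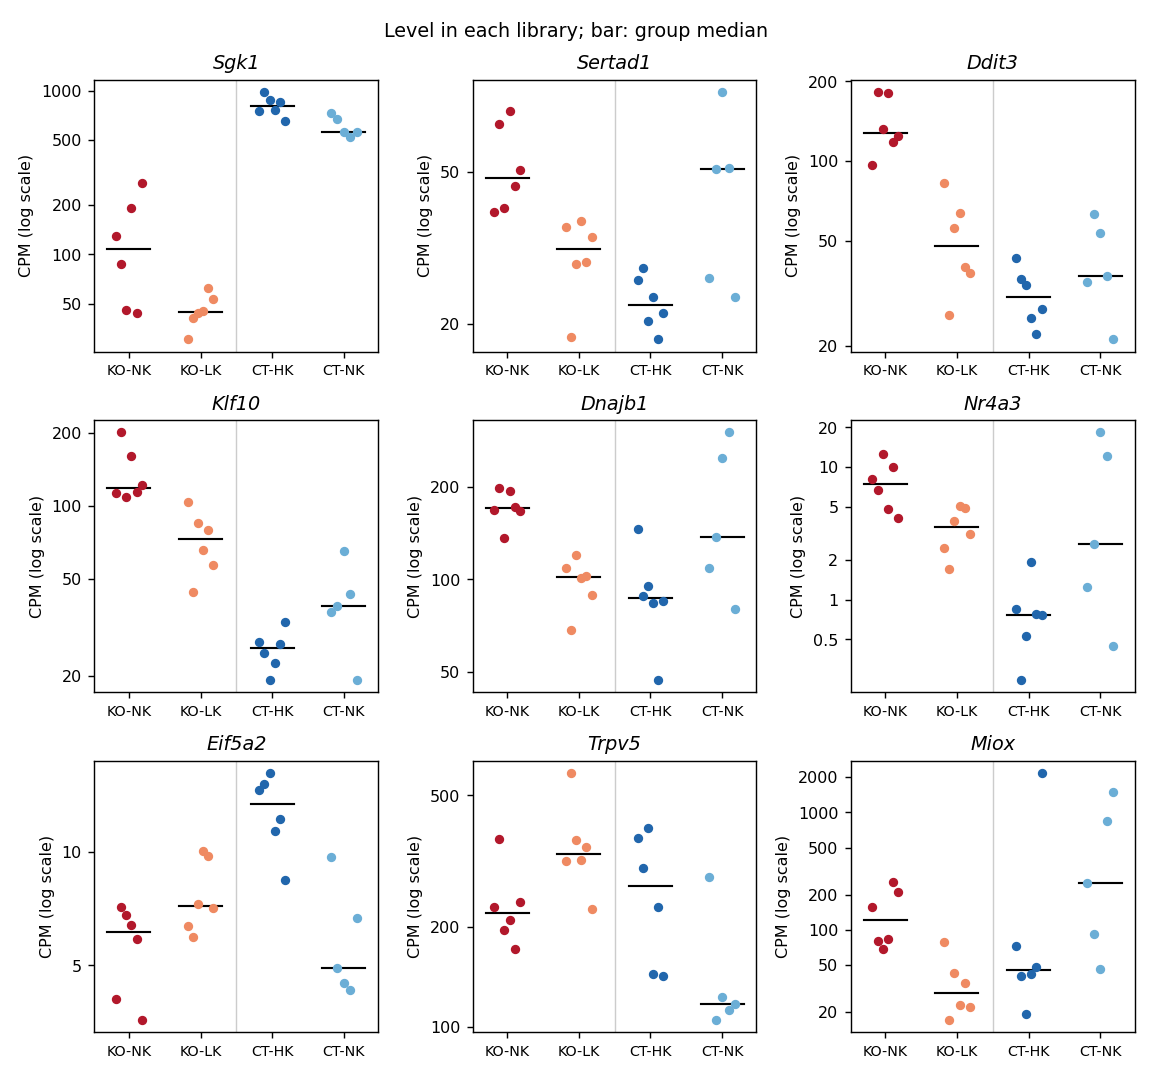
CPM on a log axis for 9 genes in each library of the 4 groups, with a bar at the group median. Sertad1, Ddit3, Klf10 and Dnajb1 separate KO-NK from KO-LK without overlap, Nr4a3 shows CT-NK replicates 3 and 4 high, and Miox shows CT-HK replicate 6 at 2168 CPM.

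Among 26 corticosteroid targets, which the mineralocorticoid and glucocorticoid receptors can induce, the median difference was -0.24, with 9 positive and 17 negative. Over all tested genes it was -0.16, and over genes of at least 5 CPM in some group 0.11. At an unadjusted p under 0.05, 4 members had a lower step in controls and 0 a higher one, and 7 had a lower one without CT-HK replicate 6. With all libraries, 1.74% of all genes had a lower step in controls at that p and 2.03% a higher one. The member counts of the lists below are to be read beside these shares, and counts for a single step beside the shares that follow. In the knockout step 6 members were higher in KO-NK and 1 lower at that p, and in the control step 2 were higher in CT-HK and 1 lower, against 1.44% and 1.39% of all genes for the 2 directions in the knockout step and 2.21% and 1.38% in the control step. Sgk1 and Pdk4 were among those with a knockout step. Pdk4, the kinase that shuts pyruvate dehydrogenase, ranged over 72.2 to 232 CPM (median 124) in KO-NK and 31.1 to 57.4 CPM (median 51.00) in KO-LK, without overlap. In controls it ranged over 9.25 to 20.4 CPM (median 13.4) in CT-HK and 7.54 to 30.9 CPM (median 10.8) in CT-NK. Its knockout step was 1.52 (0.89 to 2.15), its control step -0.03 (-0.68 to 0.63) and its difference -1.55 (-2.45 to -0.65; adjusted p = 0.876 by edgeR).

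Other corticosteroid responsive genes were less alike. Fkbp5, a co-chaperone of the steroid receptors, ranged over 10.98 to 25.1 CPM (median 20.6) in KO-NK and 11.4 to 21.03 CPM (median 16.8) in KO-LK, against 39.2 to 97.97 CPM (median 80.8) in CT-HK and 23.4 to 79.99 CPM (median 40.7) in CT-NK. Its larger step was the control one, 0.79 (0.22 to 1.35), against 0.24 (-0.30 to 0.78) in knockouts, and the difference was 0.55 (-0.23 to 1.33). Gchfr, a feedback regulator of tetrahydrobiopterin synthesis, held 14.9, 11.02, 7.09, 12.6, 11.1 and 22.3 CPM in KO-NK and 5.46, 7.17, 6.09, 8.35, 7.58 and 7.48 CPM in KO-LK. In controls it ranged over 29.4 to 58.3 CPM (median 37.9) in CT-HK and 25.8 to 48.5 CPM (median 41.1) in CT-NK. Every control library of Gchfr lay above every knockout library. Its difference was -0.87 (-1.53 to -0.20), from a knockout step of 0.91 and a control step of 0.04. Prr5l, a component of mTORC2, had a difference of -0.81 (-1.30 to -0.31), with 43.1 to 79.5 CPM (median 60.1) in KO-NK and 37.1 to 65.8 CPM (median 43.5) in KO-LK, against 13.5 to 18.5 CPM (median 15.5) in CT-HK and 14.2 to 25.4 CPM (median 22.00) in CT-NK.

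The subunits of the epithelial sodium channel had small differences. Over 23 genes of the channel and its regulators the median difference was -0.08, with 10 positive and 13 negative and 1 higher and 2 lower at an unadjusted p under 0.05, and it was 0.06 without CT-NK replicate 3. Scnn1a, the subunit with the strongest known aldosterone response in kidney, ranged over 131 to 240.2 CPM (median 173) in KO-NK and 92.4 to 203 CPM (median 113) in KO-LK, against 213 to 575 CPM (median 339) in CT-HK and 163 to 479.6 CPM (median 333) in CT-NK. Its knockout step was 0.56 (0.04 to 1.07), its control step 0.16 (-0.38 to 0.70) and its difference -0.40 (-1.14 to 0.35). Scnn1b had a difference of 0.08 (-0.58 to 0.73), whose sign turned under several alternatives, and Scnn1g one of 0.24 (-0.36 to 0.84). A change of the step by 2-fold in either direction lay outside the intervals of Scnn1b and Scnn1g, and a 2-fold lower step in controls lay within that of Scnn1a.

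Kcnj1 and Atp12a, which move potassium out of and into the body, had the larger of their steps in controls, in opposite directions. Kcnj1 ranged over 597 to 1064 CPM (median 1004) in KO-NK and 705 to 1164 CPM (median 872) in KO-LK, against 541 to 1197 CPM (median 893) in CT-HK and 367 to 833 CPM (median 569) in CT-NK. Its knockout step was 0.00 (-0.45 to 0.45), its control step 0.59 (0.11 to 1.06) and its difference 0.59 (-0.06 to 1.24). Atp12a, the non-gastric proton-potassium pump, held 37.9, 42.9, 21.8, 49.1, 23.5 and 32.7 CPM in KO-NK and 59.9, 16.4, 28.6, 29.3, 28.5 and 31.3 CPM in KO-LK. In controls it held 2.14, 0.745, 1.400, 1.52, 2.52 and 0.435 CPM in CT-HK and 4.09, 2.61, 10.4, 7.81 and 2.13 CPM in CT-NK. Every knockout library lay above every control library, the knockout groups overlapped throughout, and CT-HK was the lower control group with an overlap at CT-NK replicate 5. Its control step was -1.89 (-2.76 to -1.02; adjusted p = 0.497 by edgeR and 0.0216 by DESeq2), its knockout step 0.10 (-0.68 to 0.88) and its difference -1.99 (-3.16 to -0.82; adjusted p = 0.876 by edgeR). The 21 tested potassium channels and transporters had a median difference of -0.49, with 1 member higher and 0 lower at an unadjusted p under 0.05. That median was -0.84 without CT-HK replicate 4 and -0.10 without CT-NK replicate 5, and 3 members were lower at that p without CT-HK replicate 6.

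WNK kinases sense chloride and potassium and act on sodium and potassium transport through SPAK. The 16 genes of the pathway had a median difference of 0.17, with 12 positive and 4 negative and none at an unadjusted p under 0.05. In the control step 3 were higher in CT-HK at that p, against 2.21% of all genes. Wnk1 ranged over 114 to 228 CPM (median 159) in KO-NK and 87.4 to 345 CPM (median 156) in KO-LK, against 198 to 573 CPM (median 367) in CT-HK and 144 to 264 CPM (median 257) in CT-NK, for a difference of 0.83 (0.00 to 1.66). Wnk4 had a difference of 0.66 (-0.13 to 1.45). The number of pathway members higher in CT-HK was 0 without CT-NK replicate 4 and 5 without CT-NK replicate 5.

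Genes of calcium transport in the connecting tubule and of its regulation had mostly positive differences, a higher step in controls. The route itself consists of the entry channel Trpv5, the calcium-binding proteins of S100g and Calb1, and exit carriers and pumps. The list also holds receptors and other regulators. Of the 12 genes on the list 11 had a positive difference, with a median of 0.69, against -0.16 over all genes and 0.11 over genes of at least 5 CPM. At an unadjusted p under 0.05, 2 were higher and 0 lower in the difference, and 4 were higher in CT-HK in the control step. Trpv5 held 231, 368, 196, 209.5, 172 and 238 CPM in KO-NK and 316, 584, 366, 318, 348 and 226 CPM in KO-LK. It held 372, 301, 398, 145, 229.5 and 143 CPM in CT-HK and 282, 105, 123, 112 and 117 CPM in CT-NK. Within knockouts KO-NK was the lower group and within controls CT-HK the higher one, with overlap in both, and CT-NK replicate 1 lay far above the other 4 CT-NK libraries. The difference of Trpv5 was 1.45 (SE 0.42, 0.58 to 2.32; adjusted p = 0.876 by edgeR), from a knockout step of -0.61 and a control step of 0.84.

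S100g ranged over 612 to 1532 CPM (median 1159.7) in KO-NK and 540.1 to 2509 CPM (median 1322) in KO-LK, against 3381 to 11636 CPM (median 7791) in CT-HK and 3560.1 to 5611 CPM (median 4353) in CT-NK, and its difference was 1.14 (0.17 to 2.11). Calb1 had a control step of 0.79 like that of S100g (0.79), but a positive knockout step, 0.50 (-0.13 to 1.12), and so a difference of 0.29 (-0.62 to 1.19). The count of members with a higher step in controls at an unadjusted p under 0.05 ran from 1 without KO-LK replicate 2 to 6 without CT-HK replicate 6. Without CT-HK replicate 6, 1 member had a lower step in controls at that p. It was the only member called by edgeR there, with a difference of -4.695 (adjusted p = 0.0362). The median of the list ran from 0.57 to 0.81 over the fits that each left out 1 library. For 9 of the 12 genes KO-LK replicate 5 was the highest KO-LK library, for 8 CT-NK replicate 1 was the highest CT-NK library, and for 7 CT-HK replicate 6 the lowest CT-HK library. How far the share of connecting tubule in each dissected sample moved with these values was not tested.

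**Figure D3:**
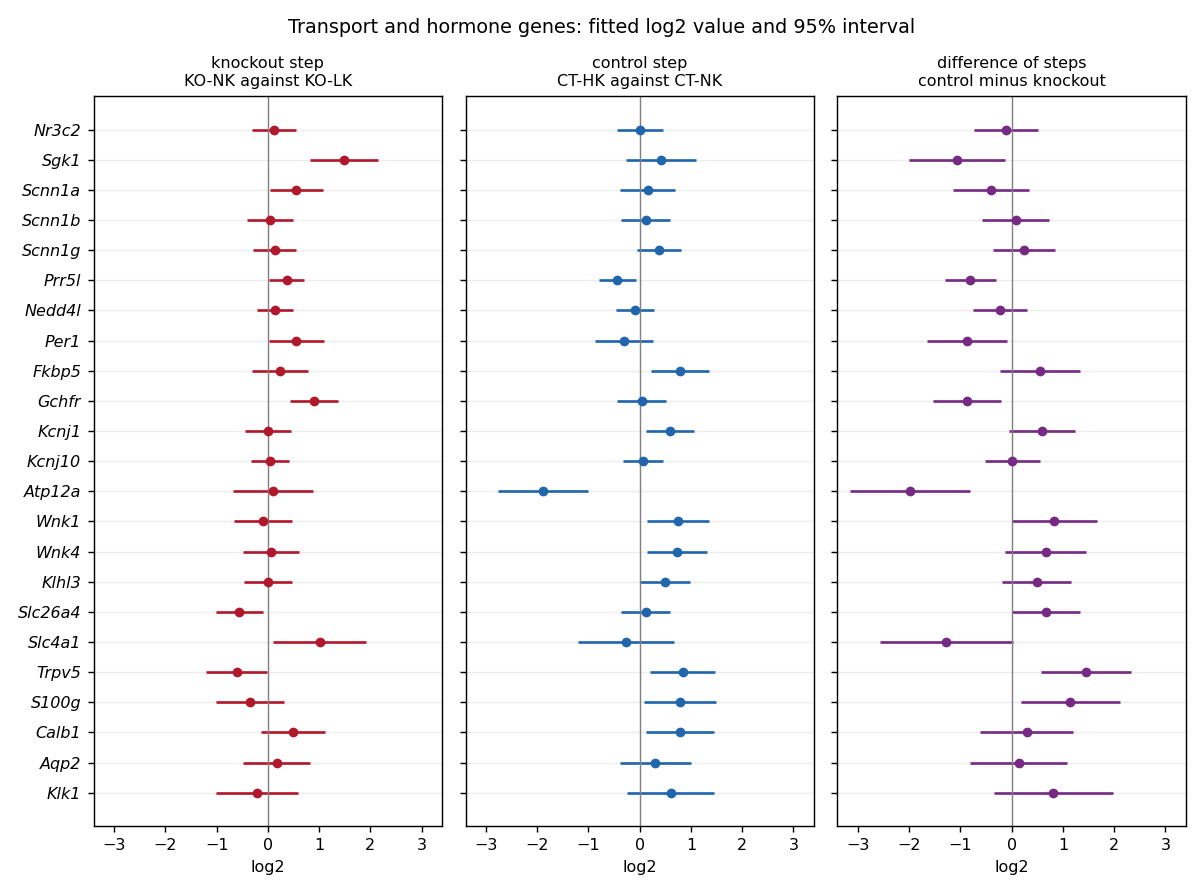
Knockout step, control step and their difference (control minus knockout) in log2 units for 23 transport and receptor target genes, with 95% intervals. Sgk1 has its larger step in knockouts, Trpv5, S100g, Wnk1 and Kcnj1 have theirs in controls with positive differences, and Atp12a has a negative control step.

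Immediate early genes, which cells transcribe within minutes of a stimulus, had more members at an unadjusted p under 0.05 in the difference, over all 23 libraries, than any other of the 42 lists. Of 26 tested, 25 had a negative difference and 1 a positive one, with a median of -1.03, and 12 were at an unadjusted p under 0.05, against 1.74% of all genes in that direction. None was called by edgeR, and DESeq2 called 3. In the knockout step their median was 0.37, with 24 positive and 3 at that p, and in the control step -0.69, with 24 negative and 10 at that p. Fos, an AP-1 subunit, ranged over 4015 to 5656 CPM (median 5121) in KO-NK and 2877 to 4816 CPM (median 4484) in KO-LK, against 387 to 1485 CPM (median 805) in CT-HK and 278 to 2087 CPM (median 1441) in CT-NK. Every knockout library lay above every control library for Fos, and its difference was -0.82 (-1.84 to 0.21). Fosl2, another AP-1 subunit, held 26.4, 30.04, 35.3, 33.8, 30.6 and 13.99 CPM in KO-NK and 15.3, 6.700, 22.98, 23.4, 15.1 and 10.7 CPM in KO-LK. It held 6.47, 4.38, 2.61, 6.25, 4.79 and 8.05 CPM in CT-HK and 6.13, 18.1, 34.5, 17.6 and 3.57 CPM in CT-NK, and its difference was -2.41 (-3.61 to -1.21; adjusted p = 0.627 by edgeR and 0.0493 by DESeq2).

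Single libraries weighed on these values. Summed over the list, immediate early genes took 15722 to 24253 CPM in KO-NK and 10623 to 18145 CPM in KO-LK. They took 1801 to 6958 CPM in CT-HK and 1608 to 8306 CPM in CT-NK. CT-NK replicate 3 was the highest CT-NK library for 11 of the 26 genes and replicate 5 the lowest for 18, KO-LK replicate 3 the highest KO-LK library for 17 and replicate 2 the lowest for 14. Without CT-NK replicate 3 the number of members at an unadjusted p under 0.05 with a lower step in controls was 8, and in the control step alone it was 3 in place of 10. Without CT-NK replicate 5 the control step had 14. The median difference lay between -1.28 and -0.79 over the fits that each left out 1 library. These genes also respond to dissection and warming of tissue, and the time from death to lysis is not given in the labels, so its part was not tested.

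Genes that NF-kappaB induces, MAP kinase feedback genes and Kruppel-like factors had median differences below 0 as well. The 19 NF-kappaB feedback genes and chemokines had a median difference of -0.65, with 15 negative. At an unadjusted p under 0.05 there were 6, all with a lower step in controls, against 1.74% of all genes in that direction. Nfkbia, which encodes the inhibitor that NF-kappaB itself induces, held 448, 523, 349.8, 520.01, 369 and 479.5 CPM in KO-NK and 459, 112, 568, 554, 205 and 179 CPM in KO-LK. It held 82.2, 90.1, 72.8, 57.6, 57.00 and 71.1 CPM in CT-HK and 112, 145, 486, 161 and 78.9 CPM in CT-NK. CT-NK replicate 3 stood far above the other CT-NK libraries, and in KO-LK replicates 1, 3 and 4 were high and replicates 2, 5 and 6 low. Its difference was -1.83 (-2.95 to -0.70). Tnfaip3, the gene of the A20 brake on NF-kappaB, had a difference of -2.09 (-3.38 to -0.81). Without CT-NK replicate 3 the count of 6 was 3, and without CT-NK replicate 4 the median of the list was -0.23.

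The 18 MAP kinase feedback genes had a median difference of -0.53, with 5 positive and 13 negative, and 3 members at an unadjusted p under 0.05, all with a lower step in controls. Without CT-HK replicate 6 their median was -0.91 with 7 members at that p, and without CT-NK replicate 3 it was -0.38. The 17 Kruppel-like factors had a median of -0.52, with 3 positive and 14 negative, and 4 members at that p, all with a lower step in controls. Their median was -0.26 without KO-NK replicate 3 and -0.68 without CT-HK replicate 6. Klf10 led the Kruppel-like factors, followed by Klf11 with a difference of -1.36 (-2.06 to -0.67) and Klf6 with -1.46 (-2.33 to -0.58). Irf1, an interferon-induced transcription factor that also answers to NF-kappaB, held 231, 543, 364, 513, 226 and 328 CPM in KO-NK and 335, 56.5, 352, 259, 118 and 80.2 CPM in KO-LK. It ranged over 17.01 to 30.7 CPM (median 26.6) in CT-HK and 28.96 to 113 CPM (median 58.5) in CT-NK. As for Nfkbia, KO-LK replicates 2, 5 and 6 were the low ones, and the difference was -2.17 (-3.31 to -1.03). The interferon response genes as a list had the other sign. Of 20, Irf1 included, 17 had a positive difference, with a median of 0.41, and in the knockout step 18 were negative, 5 of them at an unadjusted p under 0.05 and 10 without KO-NK replicate 6.

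**Figure D4:**
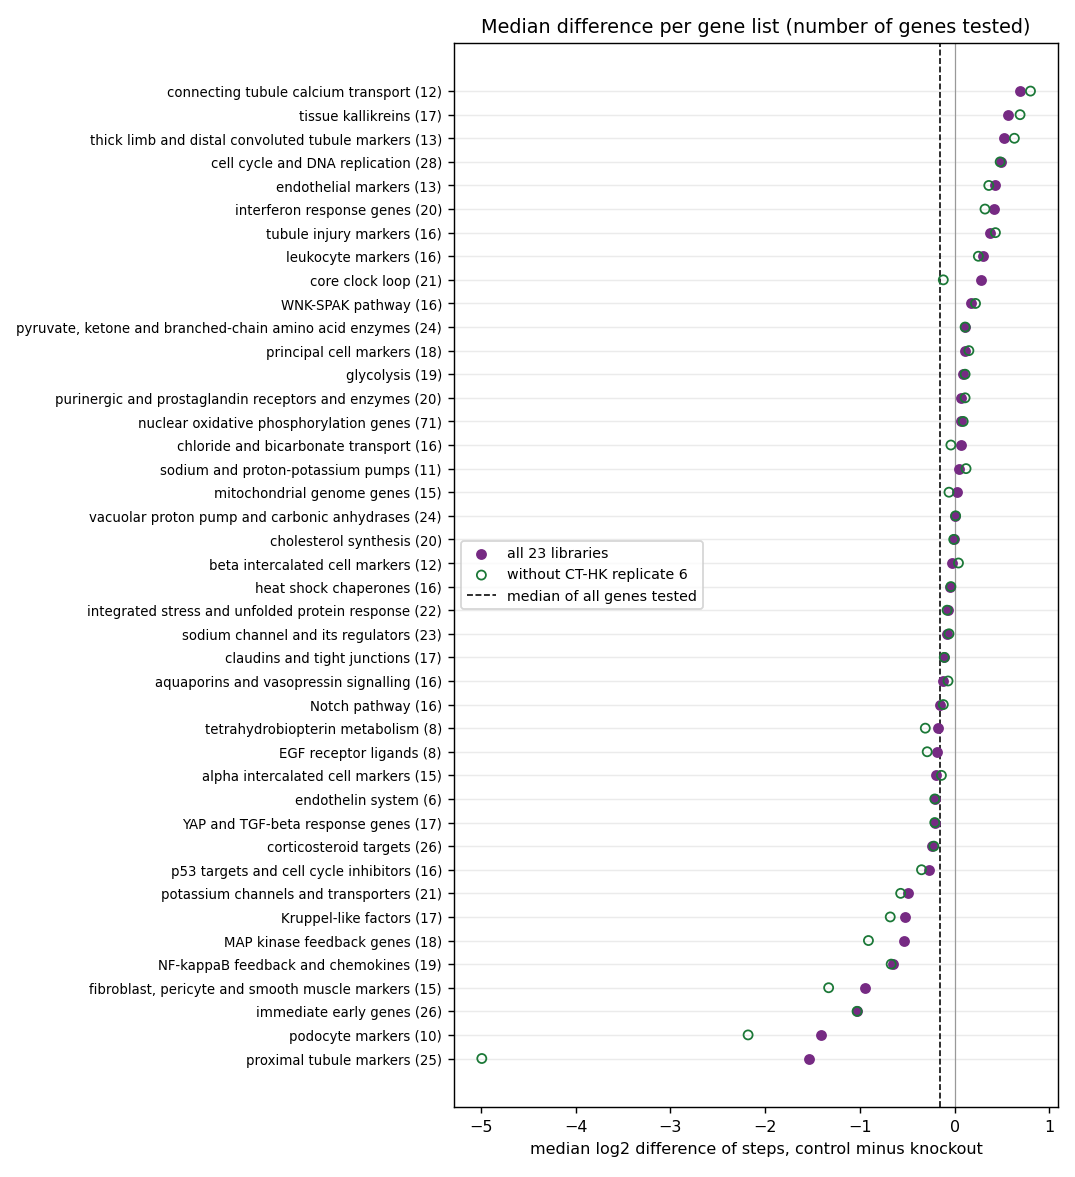
Median difference of the steps (control minus knockout, log2) for each of 42 gene lists, with all 23 libraries and without CT-HK replicate 6, and the median of all tested genes as a dashed line. Immediate early genes lie at -1.03 and the list of calcium transport genes and their regulators at 0.69. The proximal tubule markers move to -4.99 without CT-HK replicate 6.

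Stress genes did not share one sign. The 22 genes of the integrated stress and unfolded protein responses had a median difference of -0.07, with 11 positive and 11 negative, 3 higher and 4 lower at an unadjusted p under 0.05. Ddit3 was the leading one, and Atf4, the factor upstream of it, had a difference of -0.98 (-1.58 to -0.37), at 98.2 to 148 CPM (median 127) in KO-NK and 67.8 to 112 CPM (median 100.3) in KO-LK, against 39.7 to 65.5 CPM (median 51.1) in CT-HK and 46.6 to 118 CPM (median 62.5) in CT-NK. Sdf2l1, a chaperone of the endoplasmic reticulum, went the other way with 0.83 (0.21 to 1.45). Among 16 heat shock chaperones the median was -0.05, with 1 member higher and 3 lower at that p. Dnajb1 had the smallest p of that list. Without CT-NK replicate 3 these medians were 0.08 and 0.05.

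The 16 p53 targets and cell cycle inhibitors had a median difference of -0.27, with 13 negative, and 1 was higher and 3 lower at an unadjusted p under 0.05. Cdkn1a, which encodes the inhibitor p21, ranged over 48.1 to 59.9 CPM (median 55.1) in KO-NK and 45.5 to 59.5 CPM (median 51.4) in KO-LK, against 11.4 to 21.2 CPM (median 15.8) in CT-HK and 18.5 to 39.99 CPM (median 23.2) in CT-NK, with a difference of -0.85 (-1.35 to -0.34). Gadd45b, a stress gene that also answers to NF-kappaB, held 277, 379, 344, 314, 242 and 315 CPM in KO-NK and 388, 53.2, 409, 273, 85.4 and 88.1 CPM in KO-LK. It held 59.8, 22.9, 25.6, 24.7, 19.3 and 20.3 CPM in CT-HK and 84.9, 118, 99.7, 24.6 and 14.9 CPM in CT-NK. As for Nfkbia and Irf1, KO-LK replicates 2, 5 and 6 were low, and its difference was -1.78 (-3.20 to -0.36).

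The clock loop was mixed too, with a median difference of 0.28 over 21 genes, which was -0.12 without CT-HK replicate 6, and 2 higher and 3 lower at an unadjusted p under 0.05. Arntl, the activating arm of the clock, held 24.1, 29.2, 23.2, 34.8, 32.03 and 22.5 CPM in KO-NK and 19.6, 20.2, 8.52, 9.35, 25.5 and 20.2 CPM in KO-LK. It held 1.42, 0.951, 2.46, 2.82, 2.23 and 2.14 CPM in CT-HK and 2.600, 3.104, 10.8, 14.3 and 1.93 CPM in CT-NK. CT-NK replicates 3 and 4 were again the high ones, and the difference of Arntl was -2.39 (-3.58 to -1.20; adjusted p = 0.627 by edgeR and 0.0493 by DESeq2). Cry1, a repressor of the loop, had the opposite sign, 1.17 (0.50 to 1.85), and its step was in controls (0.90). Nr1d1, which represses Arntl, held 106, 195, 108, 144, 126 and 146 CPM in KO-NK and 93.4, 45.4, 60.7, 53.6, 70.6 and 56.4 CPM in KO-LK without overlap. It ranged over 55.3 to 126 CPM (median 70.7) in CT-HK and 49.00 to 118 CPM (median 79.9) in CT-NK, for a knockout step of 1.12 (0.66 to 1.58; adjusted p = 0.191 by edgeR and 0.00251 by DESeq2) and a difference of -1.19 (-1.85 to -0.53). Per1, a clock gene that aldosterone also induces, had a difference of -0.87 (-1.66 to -0.09). The hour of tissue collection is not given in the labels, so its part was not tested.

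Several genes had a step in knockouts whose control step had an interval on both sides of 0. Besides Pdk4 and Nr1d1 these included Pfkfb3, whose product activates glycolysis. Pfkfb3 held 136, 216, 193, 198, 140.2 and 173 CPM in KO-NK and 109, 42.5, 117, 98.5, 48.7 and 48.9 CPM in KO-LK, without overlap, and its control step was -0.04 (-0.60 to 0.51). Its difference was -1.23 (-2.001 to -0.46). Cbr2, a carbonyl reductase, held 3.13, 2.54, 3.84, 5.87, 17.7 and 8.77 CPM in KO-NK and 1.88, 0.692, 1.19, 0.687, 1.03 and 2.32 CPM in KO-LK, also without overlap. It ranged over 8.66 to 21.5 CPM (median 10.3) in CT-HK and 4.57 to 25.7 CPM (median 22.3) in CT-NK, and its difference was -2.86 (-4.26 to -1.47; adjusted p = 0.627 by edgeR and 0.0355 by DESeq2). Nabp1, which binds single-stranded DNA, had a knockout step of 1.35 (0.79 to 1.90). In the other direction Aoc1, a diamine oxidase that breaks down histamine, held 7.91, 5.74, 2.59, 5.78, 5.31 and 4.57 CPM in KO-NK and 9.93, 13.4, 13.2, 29.9, 10.7 and 11.01 CPM in KO-LK. Its groups did not overlap in knockouts, its control groups did, and its difference was 1.51 (0.63 to 2.40). Vsig1, a cell adhesion gene, had a knockout step of -1.31 (-1.92 to -0.69). The knockout steps had an adjusted p of 0.191 by edgeR for each of Pdk4, Nr1d1, Cbr2 and Aoc1, and DESeq2 called all 4.

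Other genes had their step in controls. Rasl11a, a small GTPase of the Ras family, held 1.46, 1.903, 1.54, 1.48, 3.004 and 7.44 CPM in CT-HK and 6.73, 11.7, 24.8, 11.9 and 11.95 CPM in CT-NK. CT-HK replicate 6 alone reached into the CT-NK range. It held 56.7 to 141 CPM (median 93.5) in KO-NK and 51.3 to 124 CPM (median 90.02) in KO-LK, all far above the controls. Its control step was -2.25 (-3.07 to -1.42; adjusted p = 0.233 by edgeR and 0.000356 by DESeq2), its knockout step 0.06 (-0.68 to 0.80) and its difference -2.30 (-3.41 to -1.20). Rrad, another Ras relative that binds calcium channel subunits, ranged over 176 to 275 CPM (median 202) in KO-NK and 78.5 to 252 CPM (median 133) in KO-LK. It held 24.6, 28.3, 21.8, 14.7, 11.04 and 21.7 CPM in CT-HK and 60.6, 83.9, 156, 66.9 and 13.2 CPM in CT-NK, CT-NK replicate 5 being the one within the CT-HK range, and had a difference of -2.41 (-3.54 to -1.29). Sgms2, a sphingomyelin synthase, had a control step of 1.16 (0.51 to 1.81) and a difference of 0.80 (-0.09 to 1.68). Arnt2, a partner of bHLH-PAS factors, held 21.7, 21.6, 19.5, 13.98, 12.6 and 10.8 CPM in CT-HK and 10.7, 5.69, 6.48, 9.45 and 9.17 CPM in CT-NK. These groups did not overlap, and the control step was 1.01 (0.50 to 1.52), against a knockout step of 0.00 (-0.48 to 0.48). S1pr2, a sphingosine-1-phosphate receptor, had a control step of -1.03 (-1.48 to -0.58) without overlap, and Sybu, a linker of vesicles to kinesin, one of 1.13 (0.42 to 1.85). Over the fits that each left out 1 library, the difference of S1pr2 ran from -1.04 to -0.72 and that of Sybu from 0.56 to 0.96. DESeq2 also called S1pr2 in the mean of both steps, at -0.58 (adjusted p = 0.0489).

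The 11 sodium and proton-potassium pump genes had a median difference of 0.05, with Atp12a the 1 member at an unadjusted p under 0.05. Fxyd4, a pump regulator of the collecting duct, had a control step of -0.85 (-1.47 to -0.22) and a difference of -0.82 (-1.69 to 0.04). Tissue kallikreins, proteases that connecting tubule cells secrete, had a median difference of 0.56 over 17 genes, 13 of them positive and 1 higher at that p. All tested genes had a median of -0.16, and genes of at least 5 CPM in some group 0.11. The kallikrein median was 0.23 without KO-LK replicate 5 and 0.69 without CT-HK replicate 6. Klk1, the main renal kallikrein, ranged over 3424 to 12321 CPM (median 7034) in KO-NK and 2516 to 13427 CPM (median 8167) in KO-LK, against 12529 to 47191 CPM (median 37854) in CT-HK and 17995 to 28795 CPM (median 22518) in CT-NK, with a difference of 0.81 (-0.35 to 1.97). Kallikreins are near-identical copies of one another, so the counting could split reads between them. The 16 aquaporin and vasopressin signalling genes had a median difference of -0.12 with 2 lower at that p, the 24 vacuolar pump and carbonic anhydrase genes 0.00 with none, the 20 cholesterol synthesis genes -0.01 with 1 lower, and the 19 glycolysis genes 0.09 with 1 lower. Each of these 4 medians, and that of the sodium and proton-potassium pumps, took both signs over the fits that each left out 1 library, within -0.24 to 0.18.

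Intercalated cells regulate acid and base beside principal cells. The 15 alpha intercalated markers had a median difference of -0.20, with 4 positive and 11 negative and 2 lower at an unadjusted p under 0.05, and 4 were higher in KO-NK in the knockout step. KO-NK replicate 3 was the lowest KO-NK library for all 15, and without it 6 were lower in the difference and 8 higher in the knockout step at that p. Without KO-NK replicate 2 the knockout step had 1. Slc4a1, the basolateral anion exchanger of these cells, ranged over 54.8 to 575 CPM (median 163) in KO-NK and 51.1 to 164 CPM (median 106) in KO-LK, against 69.2 to 159.7 CPM (median 92.1) in CT-HK and 44.7 to 180.1 CPM (median 156) in CT-NK, with a difference of -1.28 (-2.58 to 0.02). Dmrt2, a transcription factor of the same cells, had a knockout step of 0.86 (0.34 to 1.37) and a difference of -1.27 (-2.01 to -0.52). The 12 beta intercalated markers had a median of -0.03, and in the knockout step 3 were lower in KO-NK at that p. One was Slc26a4, which encodes pendrin, the apical chloride-bicarbonate exchanger. Slc26a4 held 1002, 1266, 591, 1006, 1016 and 956 CPM in KO-NK and 1419, 1296, 1227, 1438, 1682 and 1513 CPM in KO-LK, for a knockout step of -0.55 (-1.01 to -0.10) and a difference of 0.67 (0.01 to 1.33).

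Proliferation genes had their values in the knockout step. Of 28 cell cycle and DNA replication genes 27 were negative there, lower in KO-NK, with a median of -0.61, and 13 had an unadjusted p under 0.05, against 1.39% of all genes in that direction. In the control step the median was -0.14, and in the difference it was 0.49, with 25 positive and 3 at that p, or 8 without KO-LK replicate 5. Cdc20, an activator of the anaphase-promoting complex, held 3.99, 4.02, 2.45, 1.26, 2.09 and 3.17 CPM in KO-NK and 12.8, 8.45, 4.78, 13.6, 3.49 and 3.53 CPM in KO-LK. KO-LK replicates 1, 2 and 4 were high, and the difference was 1.32 (0.19 to 2.45). Leukocyte markers were also mostly lower in KO-NK, with a median knockout step of -0.58, 13 of 16 negative and 2 at that p. The count of 2 was 0 without KO-NK replicate 1 and 11 without KO-NK replicate 6. Summed, the leukocyte markers took 314 to 1241 CPM in KO-NK (median 509) and 555 to 1210.1 CPM in KO-LK (median 986), and none of the 16 was at 0 in every library. Their part in the proliferation values was not tested. Top2a, which untangles replicated DNA, had a knockout step of -1.28 (-2.05 to -0.51) and a difference of 1.33 (0.23 to 2.44), and the mitotic cyclin Ccnb1 one of -1.22 (-2.05 to -0.39) and a difference of 1.34 (0.14 to 2.53).

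Tubule injury markers gave a median difference of 0.37 over 16 genes, with 3 higher and 0 lower at an unadjusted p under 0.05, and 4 were lower in KO-NK in the knockout step. That median was 0.14 without KO-LK replicate 3, and 1 was higher at that p without KO-LK replicate 4. Clu, a secreted chaperone, ranged over 2258 to 3357 CPM (median 2436) in KO-NK and 2386 to 12958 CPM (median 4331) in KO-LK, the KO-LK maximum resting on replicates 3 and 4. It ranged over 1633 to 3982 CPM (median 3116) in CT-HK and 1638 to 3144 CPM (median 2720.0) in CT-NK, and its difference was 1.53 (0.47 to 2.58). Spp1, which encodes osteopontin, had a difference of 1.23 (0.12 to 2.35). The 71 nuclear genes of oxidative phosphorylation had a median difference of 0.07 and 0 members at that p in either direction. Both of their steps were slightly positive, with medians of 0.09 in knockouts, 64 of 71 positive, and 0.15 in controls, 65 of 71 positive. Without KO-NK replicate 3 the median difference was -0.10, and without KO-NK replicate 6 the median knockout step was -0.04.

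Proximal tubule transcripts, which do not belong to the dissected segments, moved strongly with single libraries. Summed over 25 markers, they took 1709.6, 1087, 1499, 1327, 3524 and 7168 CPM in KO-NK and 1987, 499.6, 1575, 619.7, 1028 and 542 CPM in KO-LK. They took 992, 1034, 350.5, 752, 733 and 39514 CPM in CT-HK and 8565, 819, 612, 9077 and 21135 CPM in CT-NK. CT-HK replicate 6 was the highest of all libraries, the other 5 CT-HK libraries were among the lowest, and CT-NK replicates 1, 4 and 5 were high. None of the 25 genes was at 0 in every library. In the knockout step all 25 were positive, with a median of 1.51 and 0 at an unadjusted p under 0.05. All 25 had a negative difference, with a median of -1.54 and 0 at that p. Without CT-HK replicate 6 the median was -4.99 and 19 were called, and without CT-NK replicate 5 the median was -0.78.

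That library also set the number of calls. Without it edgeR called 214 of 25594 genes in the difference (0.836%), 7 higher (0.0274%) and 207 lower (0.809%). It called 169 in the control step (0.66%), 6 higher (0.0234%) and 163 lower (0.637%), and 144 in both. Of the 214 genes, 171 (79.9%) had a correlation above 0.8 with the proximal tubule score over libraries, against 1.37% of all tested genes, and 43 did not. Miox, the proximal tubule enzyme that breaks down inositol, held 73.1, 40.2, 19.1, 41.8, 48.8 and 2168 CPM in CT-HK and 252, 92.2, 46.5, 853 and 1503 CPM in CT-NK. It ranged over 68.4 to 257 CPM (median 120.4) in KO-NK and 17.1 to 78.6 CPM (median 29.3) in KO-LK. Its difference was -2.43 (-5.25 to 0.39) with all libraries and -5.59 without CT-HK replicate 6 (adjusted p = 0.0175, edgeR). Whether the diet or the dissection set these values was not tested.

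The genes that lead the difference with all libraries were all past the threshold without CT-HK replicate 6, namely the 5 lower and the 5 higher ones above. By edgeR the difference of Sertad1 was -1.79 (adjusted p = 0.0205), that of Ddit3 -1.84 (0.0231), that of Klf10 -1.65 (0.0213) and that of Nr4a3 -4.13 (0.0318). That of Eif5a2 was 1.66 (0.0205) and that of Ltc4s 1.95 (0.0175). The differences of Sgk1, -1.004 (0.709), and Trpv5, 1.58 (0.0757), were not called. With all libraries the differences of Sertad1 and Ddit3 had been -1.81 and -1.87, no nearer to 0, each with an adjusted p of 0.386 by edgeR. The adjustment takes in the p-values of all genes, and 171 of the 214 called genes followed the proximal tubule score. How far those genes lowered the adjusted p of the others was not tested. CT-HK replicate 6 was singled out after the data had been seen. Over all alternatives the adjusted p of Sertad1 ran from 0.00537 to 1, that of Ddit3 from 0.00689 to 1 and that of Sgk1 from 0.295 to 1. Without CT-NK replicate 5, the other library rich in proximal tubule transcripts, 5 genes were called in the difference, namely Rrad, Sertad1, Nr4a3, Klf10 and Ddit3. Without both libraries there were 46 calls, an alternative chosen after the data had been seen.

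Markers of other cell types moved with single libraries too. The 10 podocyte markers summed to 47.6 to 440.3 CPM in KO-NK and 65.3 to 114 CPM in KO-LK. They summed to 49.7 to 297 CPM in CT-HK and 48.6 to 358 CPM in CT-NK, with the maxima in KO-NK replicate 3, CT-HK replicate 6 and CT-NK replicate 5. Their median difference was -1.41, with 1 at an unadjusted p under 0.05. It turned to 0.17 without KO-NK replicate 3, and was -2.18 with 6 members at that p without CT-HK replicate 6. The 15 tested fibroblast, pericyte and smooth muscle markers had a median difference of -0.95, which was -0.11 without CT-NK replicate 5 and -1.33 without CT-HK replicate 6. In the control step all 15 were negative, 5 of them at that p, with 0 at that p without CT-NK replicate 5 and 8 without CT-HK replicate 6. Summed, all 16 listed markers of these cells reached 179 CPM in CT-HK and 467 CPM in CT-NK, in the same replicates 6 and 5, against medians of 40.1 and 85.4 CPM in those groups. Dcn, a matrix proteoglycan of fibroblasts, had a knockout step of -1.42 (-2.04 to -0.79) and a difference of 0.71 (-0.18 to 1.59). The 13 endothelial markers had a median difference of 0.43 with none at that p, and 0.23 without CT-NK replicate 2. Thick limb and distal convoluted tubule markers were not low, and all 13 summed to 2597 to 8309 CPM in KO-NK and 3081.5 to 5808 CPM in KO-LK, against 3285 to 6546 CPM in CT-HK and 2495 to 5167 CPM in CT-NK. Their median difference was 0.52 with 1 higher at that p, and ran from 0.01 without KO-LK replicate 1 to 0.93 without CT-NK replicate 5. The part of these cells in other values was not tested.

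**Figure D5:**
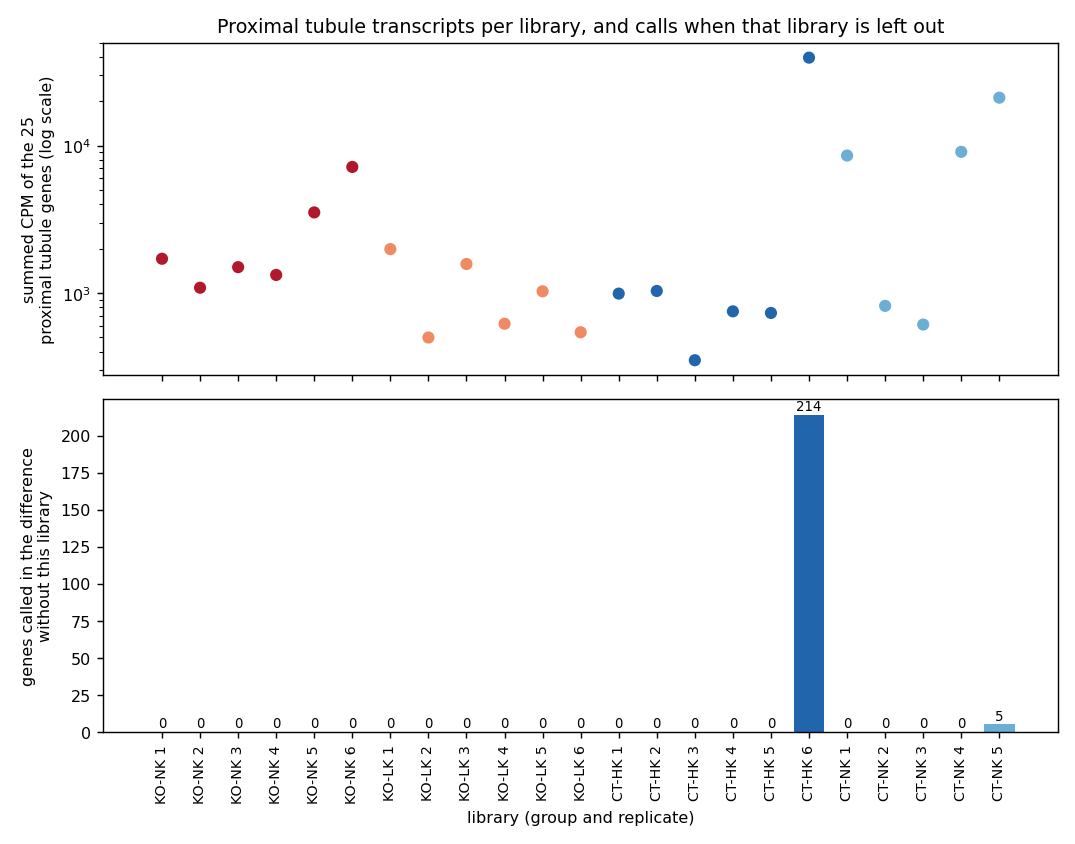
Summed CPM of 25 proximal tubule markers in each library (log axis) and the number of genes called in the difference by edgeR when that library is left out. CT-HK replicate 6 has the highest sum and leaves 214 calls when left out, and CT-NK replicate 5 comes second with 5.

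Promoter letters were compared between the genes at an unadjusted p under 0.05 and all tested genes, in RefSeq windows of 300 bases and on both strands. Windows were at hand for 15428 of the tested genes, for 294 of the genes with a lower step in controls and for 366 of those with a higher one. Those of a whole chromosome were left out. AP-1 sites (TGANTCA) were in 6.48% of 19347 windows of tested genes, in 4.74% of 380 windows of genes with a lower step in controls and in 2.43% of 453 windows of genes with a higher one. Cyclic AMP elements (TGACGTCA) were in 2.41%, 4.21% and 1.77% of the same windows, and E-boxes (CACGTG) in 8.6%, 7.89% and 11.5%. AGAACA was in 15.3%, 10.3% and 14.8%, and D-boxes (TTANGTAA) in 1.87%, 1.84% and 1.55%. Windows with no match say nothing about sites elsewhere in a gene.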

How the data were processed

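RNA from microdissected mouse connecting tubule and cortical collecting duct was sequenced in 23 libraries prepared with SMART-Seq HT and Nextera XT kits, per the labels' protocols. The authors deposited tables of estimated counts and of TPM (transcripts-per-million) per gene, made with Salmon 0.14.10 on GRCm38.p6, per the submitters' processing notes. Strand is not given in the sources used here. Of the estimated count values 35.9% were not whole (tolerance 1e-06), and they were rounded before testing. Libraries held 16158408 to 34154475 counts, and 104 of the symbols stood for more than 1 of the 54393 gene IDs.

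One mean per group was fitted over all 23 libraries with edgeR 4.0.16 in R 4.3.3 (TMM scaling, filterByExpr, quasi-likelihood F test, 25829 genes, 19 residual degrees of freedom, common biological coefficient of variation 0.56), and p-values were adjusted by Benjamini-Hochberg over all genes tested (threshold 0.05). The contrasts were the knockout step, KO-NK minus KO-LK, the control step, CT-HK minus CT-NK, the control step minus the knockout step, and the mean of both. Intervals are 95% intervals from the fitted standard errors. CPM values are rounded counts-per-million over TMM-scaled library sizes. No 2 libraries of a group were duplicates of each other by their counts. The code was tested on simulated counts.

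Alternatives were edgeR with the size factors of DESeq2, DESeq2 1.42.0 itself, no low-count filter, a filter of 5 CPM in 5 libraries, limma 3.58.1 on log2(TPM + 1) for genes of at least 1 TPM in 5 libraries, replicate number as a block, a robust fit, covariates for other segments, leaving out the libraries rich in receptor genes, leaving out each library, and, chosen after seeing the data, a fit without the 2 libraries of most proximal tubule counts. For a single step, a fit of only the 2 groups compared was also made.

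Genes named are Nr3c2, the 5 of smallest p per direction in the difference and in each step (absolute log2 value from 1 up, group mean from 5 CPM up), up to 3 of smallest p in each of 42 gene lists, and a panel of transport genes and receptor targets. Predicted and receptor genes were counted and not named, and 1 gene of the panel is not reported here. Genes and lists were chosen with earlier results of these data known, so no list is independent support for a direction. Promoter sequences are RefSeq's on GRCm38.p6, and gene positions are from GENCODE M21 on GRCm38.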

Additional observations from a re-analysis of the deposited data

Results flagged for a closer look

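In each group the library farthest from the rest was compared with the group's range by Dixon's limit, which chance passes in about 1 of 20 groups. No library held more than 3 of the 21 values past it. CT-NK replicate 3 was high for Nfkbia (486 CPM), Pdk4 (30.9 CPM) and Rasl11a (24.8 CPM), and CT-NK replicate 1 for Trpv5 (282 CPM) and Wnk4 (257 CPM). CT-HK replicate 6 was high for Miox (2168 CPM) and Rasl11a (7.44 CPM).

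The other control libraries past the limit were CT-HK replicate 4 for Nr4a3 (1.91 CPM) and S1pr2 (3.73 CPM), CT-HK replicate 1 for Nr1d1 (126 CPM) and Gadd45b (59.8 CPM) and CT-HK replicate 2 for Fxyd4 (213 CPM). Among knockouts on low potassium, replicate 5 was high for Sgms2 (80.3 CPM) and Dmrt2 (36.1 CPM), and replicate 4 for Scnn1a (203 CPM) and Aoc1 (29.9 CPM). Replicate 3 of that group was high for Nr4a2 (10.9 CPM), and replicate 1 for Atp12a (59.9 CPM), and replicate 2 was low for Spock3 (7.32 CPM). Among knockouts on normal potassium, replicate 2 was high for Trpv5 (368 CPM) and replicate 3 for Rln1 (2.96 CPM).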

How the results depend on the processing

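Calls in the difference, the knockout step, the control step and the mean of both steps numbered 23, 24, 17 and 15 by DESeq2, against 0 in each by edgeR. A filter of 5 CPM in 5 libraries gave 10 in the knockout step, among them Nr1d1, Ddit3, Aoc1 and Pdk4, 1 in the control step and 1 in the mean, and 0 in the difference. limma on log2(TPM + 1) gave 1 call in the knockout step, Spink12, and 1 in the mean. Without the 2 libraries richest in proximal tubule counts there were 46 in the difference, 2 in the control step and 2 in the mean. The cause was not tested. DESeq2's size factors, no filter, the robust fit, segment covariates, the receptor-rich libraries left out and fits of 2 groups gave 0.

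Leaving out each library gave 0 to 214 calls in the difference and 0 to 169 in the control step, both highest without CT-HK replicate 6. It gave 0 to 3 in the knockout step, highest without KO-LK replicate 1, and 0 to 1 in the mean. The difference of Nr3c2 ran from -0.25 to 0.05 over these fits and that of Scnn1b from -0.10 to 0.21. Scnn1b was -0.02 under the stricter filter, -0.06 by limma, -0.20 with segment covariates and -0.01 without the receptor-rich libraries. Scnn1g was -0.02 with segment covariates and Arnt2 -0.03 by limma. No other named gene turned its sign.

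With the replicate number as a block, in 6 levels or 2, the counts stayed at 0 (0 by the replicate block in the difference). The numbers do not pair the libraries: 33 pairs of the same number had correlations of -0.64 to 0.60 (median -0.17), 11 of them over 0.1, and 3 libraries correlated best with their own number.

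The median of all genes in the difference was -0.16, against -0.31 by DESeq2, -0.22 with no filter, -0.02 with the stricter filter and 0.00 without the receptor-rich libraries. At this spread the interval of the difference reached beyond 2-fold for 17228 of 25829 genes.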
